A study of Mus musculus with 6 samples.

Results

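OEC4 is a cluster of olfactory ensheathing cells (OECs), the glia that wrap the axons of olfactory sensory neurons on their way from the nose into the olfactory bulb. It held 3240 of the 51426 annotated cells in a single-cell RNA-seq survey of the adult mouse olfactory bulb, and 3240 of its 11551 OECs. Members were the cells that the deposited annotation placed in this cluster, and the library of each cell was taken from the annotation's library column. In the trained libraries the starts of the cell names give the number of the other trained replicate, and the library column was followed. Cluster names here are those of the study's text. The deposited annotation uses another numbering, in which the cells described here are called OEC3 and the cells called OEC3 here are called OEC4.

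The survey asked how the cell types of the bulb differ between mice with normal, reduced and increased olfactory input. All mice were C57BL/6NJ, 14 weeks old at collection, and each library pooled the bulbs of 3 mice. The control group had 2 libraries, the naris occluded group had 2, and the olfactory trained group had 2. Replicate 1 of each group pooled male mice, and replicate 2 pooled female mice. Xist, which is transcribed from the inactive X chromosome of female cells, had no UMI in OEC4 of the male pools and stood at 818, 1064 and 502 CPM (counts scaled to 1000000 UMIs) in the control, occluded and trained female pools. Naris occluded mice had 1 nostril plugged for 6 weeks, which deprives the bulb on that side of odor input, and trained mice performed an odor discrimination task for a water reward over 6 weeks. The study's methods describe the trained mice as water deprived and do not state this for the other groups. Odor training and water deprivation therefore cannot be told apart here. The labels describe the controls as unmanipulated mice, whereas the study's text calls the control naive in places and the open side of occluded mice in others, so whether control and occluded bulbs came from the same animals could not be settled. Per the labels the dissection carried some olfactory epithelium along with the bulb. OEC4 had 550 and 523 cells in control replicates 1 and 2, 459 and 530 in naris occluded replicates 1 and 2, and 712 and 466 in olfactory trained replicates 1 and 2.

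OECs arise from the neural crest and depend on the transcription factor Sox10. They accompany new olfactory axons throughout life, take up debris of dying axons and secrete growth and guidance factors. Like Schwann cells they express S100b and lipid-carrying proteins, but in the outer nerve layer of the bulb they also express neuropeptide Y (Npy).

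The OEC label was checked against genes that mark this glia. Levels are given as CPM, the unique molecular identifiers (UMIs) of a gene after scaling the UMIs of the cluster's cells in 1 library to a total of 1000000, and errors are the SD over 6 libraries. Sox10 stood at 169 and 174 CPM in the control, 160.5 and 211 in the occluded and 153 and 174 in the trained libraries. Its mean of 174 ± 20.2 CPM was the 8th highest of 38 clusters, against 253 to 298 CPM in the other OEC clusters and 7.20 CPM in MicroG1, a cluster of microglia that should not express it. The crest factor Foxd3 reached 53.9 ± 4.68 CPM. S100b, at 1643 ± 168 CPM, was higher in OEC4 than in any other cluster, with OEC1 next at 1632 CPM. The glial lipid-binding protein Fabp7 reached 12908 ± 1352 CPM. The low-affinity neurotrophin receptor Ngfr, a marker of immature OECs, was near 0, at 2.45 CPM. All 15 genes of the identity list were detected in OEC4, but also in MicroG1, so detection alone does not bear on the label. By level the label held, since MicroG1 had 1.68 CPM of Foxd3, 119.6 of S100b and 435 of Fabp7.

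OEC4 differed from the other OEC clusters first of all in how few UMIs were counted in its cells. The median cell had 817 UMIs and 470 genes, against medians of 2108 to 2352 UMIs and 1059 to 1168 genes in the other 4 OEC clusters. Of the 3240 cells, 2217 (68.4%) had under 1000 UMIs, and 10% of cells had 606 or fewer. By library the median was 844.5 and 836 UMIs in control, 932 and 754 in occluded and 793 and 770.5 in trained bulbs, so every OEC4 library lay below every library of the other OEC clusters. The summed UMIs of OEC4 ran from 424266 to 639937 per library. Transcripts of the mitochondrial genome made up a median 18.6% of the UMIs of an OEC4 cell, against 9.44% to 9.84% in the other OEC clusters, and 1345 cells (41.5%) were at or above 20%. OEC4 had the 9th lowest depth and the 5th highest mitochondrial share of the 38 clusters. Of 3232 cell barcodes in OEC4, 8 occurred in more than 1 library, compared with 1461 of 49931 barcodes in the whole series.

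**Figure D1:**
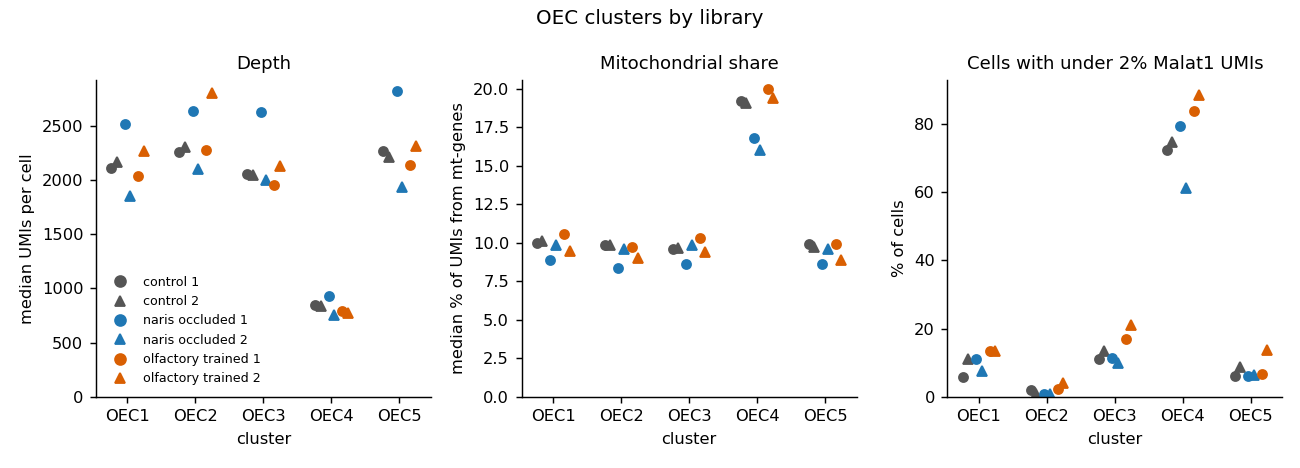
Median UMIs per cell, median percent of UMIs from the mitochondrial genome and percent of cells with under 2% of their UMIs from Malat1, for each OEC cluster (x axis), with 1 point per library (circles replicate 1, triangles replicate 2, colors the conditions). OEC4 libraries lie between 754 and 932 UMIs, between 16% and 20.0% mitochondrial UMIs and between 61.3% and 88.6% of cells low in Malat1, apart from all libraries of the other clusters on each measure.

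Malat1, a long noncoding RNA that is retained in the nucleus and is among the most abundant RNAs of most cells, was scarce in most OEC4 cells. It made up a median 0.156% of the UMIs of an OEC4 cell, against 6.64% in OEC1, 7.45% in OEC2, 7.58% in OEC3 and 7.95% in OEC5. No Malat1 UMI was found in 964 OEC4 cells (29.8%). A total of 2487 OEC4 cells (76.8%) had under 2% of their UMIs from Malat1, compared with 13.6% of OEC3, 9.64% of OEC1, 7.70% of OEC5 and 1.59% of OEC2 cells. The 2% line fell in a gap of the distribution, with 156 OEC4 cells between 1% and 4%. Such cells were also common in other clusters of low depth, at 93.6% of MicroG3 microglia, 87.6% of Astro2 astrocytes and 77.8% of EC2 endothelial cells, against 21.5% of MicroG1, 16.2% of Astro1 and 35.9% of EC1 cells. Another nuclear RNA, Neat1, had 56.1 ± 16.8 CPM in OEC4 and 90.1 CPM in OEC3, while the neuronal Meg3 had 97.6 ± 30.3 and 52.7 CPM.

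**Figure D2:**
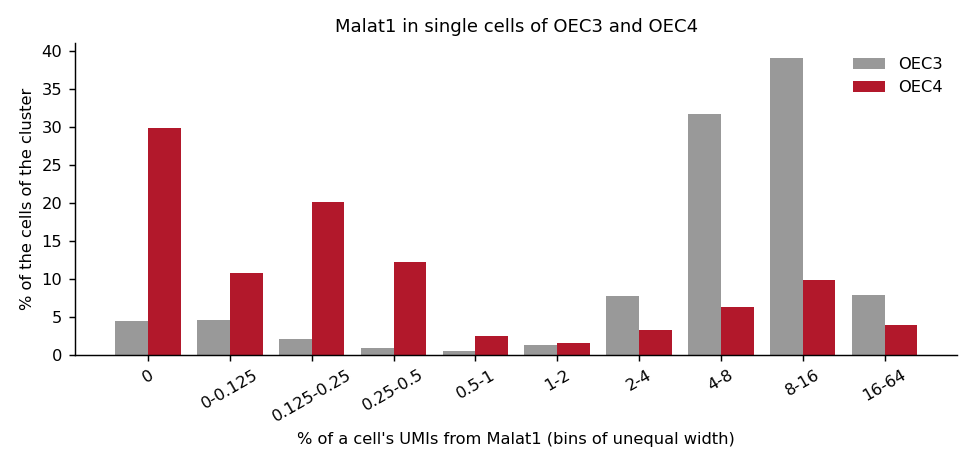
Percent of the cells of OEC3 (grey) and OEC4 (red) in bins of the percent of a cell's UMIs that came from Malat1. OEC4 has 2 groups of cells, 76.8% of them below 2% and the rest mostly above 4%, whereas 13.6% of OEC3 cells lie below 2%.

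OEC4 cells on both sides of this line carried the OEC profile. The 2487 cells low in Malat1 had a median depth of 768 UMIs with 20.2% from the mitochondrial genome, and the 753 others 1201 UMIs with 11.5%. The 15 identity genes summed to 61910.1 ± 5321 CPM in the first and 61561 ± 3609.9 CPM in the second. Npy had 10610.0 ± 1129.9 and 12084 ± 703 CPM, and Apod, which encodes a secreted lipid carrier, 8927 ± 1109 and 8562 ± 785 CPM. Sox10 was the exception, with 115 ± 22.0 CPM in cells low in Malat1 and 309 ± 44.7 CPM in the others, where it lay above the 261 CPM of OEC3 cells with at least 2% Malat1. Mest, an imprinted gene of the hydrolase family, had 136 ± 27.9 and 238 ± 45.4 CPM.

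The most abundant RNAs of OEC4, outside the mitochondrial genome and the ribosomal proteins, were those of OECs in general. Apoe, the main lipid carrier of the brain, led with 34086 ± 3513 CPM, from 28756 CPM in trained replicate 1 to 38153 CPM in occluded replicate 1. Malat1 came next with 33887 ± 12087 CPM, followed by the growth factor pleiotrophin (Ptn) with 19432 ± 1279, Fabp7, Npy with 11065 ± 930.1 and Apod with 8742 ± 949.9 CPM. Cst3, a protease inhibitor, had 7851 ± 529.8 CPM and Dbi, which binds acyl-CoA, 7061 ± 367 CPM. Itm2b, the ferritin heavy chain Fth1 and the actin-binding Tmsb4x were also among the 12 most abundant, at 4718, 4270.0 and 3201 CPM. For Npy, OEC4 lay between OEC3 with 20739 CPM and OEC1 with 3869.9 CPM, near OEC5 with 11531 CPM. For Tmsb4x it also lay between OEC3 with 4139 CPM and OEC1 with 768 CPM, but above OEC5 with 1488 CPM. Over 7023 genes outside the mitochondrial genome the mean log2 levels of OEC4 correlated with those of OEC2 at r = 0.952, OEC3 at 0.951, OEC5 at 0.951 and OEC1 at 0.911. This is a description across genes, and the clusters share their libraries.

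The summed levels of the genes that define OEC1 and of those that define OEC3 lay in OEC4 between the levels in OEC1 and OEC3. This was not particular to OEC4. In cells with at least 1000 UMIs the OEC1 list had 4645 CPM in OEC2 and 6090.3 in OEC5, between 1928 in OEC3 and 12058 in OEC1. In the same cells the OEC3 list had 3624 CPM in OEC2 and 1833 in OEC5, between 285 in OEC1 and 6013 in OEC3. The lists were chosen by the study on these same samples and are no independent evidence of a direction. The clusters were made from the expression of these same cells, so the comparisons of clusters are descriptions with no test. Of 8 OEC1 genes, 6 were higher in OEC4 than in OEC3 in 6 of 6 libraries and 0 were lower in all 6, against 13.5% and 21.6% of all 6236 genes with at least 20 CPM. The shares over all genes depend on level, and were 27.7% and 29.1% of the 1510 genes with at least 100 CPM. Igfbp7, a secreted binder of insulin-like growth factors, had 323 and 261 CPM in the control, 301 and 251 in the occluded and 214 and 344 in the trained libraries. It had 282 ± 48.8 CPM on average in OEC4, 33.9 in OEC3, 561 in OEC5 and 1730.2 in OEC1. The tight-junction protein Cldn5 had 435 ± 63.9 CPM in OEC4, 141 in OEC3 and 3630.5 in OEC1, and Igfbp5 had 494 ± 82.4, 199 and 1703 CPM. Mest was the one OEC1 gene with a lower mean in OEC4 than in OEC3, at 169 ± 36.4 against 213 CPM, and it was lower in 5 of the 6 libraries. The 8 genes summed to 2980.4 ± 169.8 CPM in OEC4, 1906 in OEC3, 6128 in OEC5 and 12000.5 in OEC1.

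The 8 OEC3 genes ran the other way, and all 8 were lower in OEC4 than in OEC3 in 6 of 6 libraries. Prss56, a serine protease, had 242 and 199 CPM in the control, 186 and 299 in the occluded and 209 and 141 in the trained libraries of OEC4. Its mean was 213 ± 53.4 CPM in OEC4, 829 in OEC3, 97.9 in OEC5 and 11.1 in OEC1. The water channel Aqp1 had 258 ± 57.3 CPM in OEC4 and 783 in OEC3, the decoy receptor Il13ra2 109.5 ± 26.0 and 359, the growth factor Igf1 196 ± 35.2 and 678, and the glutathione transferase Mgst1 563 ± 43.2 and 1737 CPM. In OEC1 these 4 genes had 49.2, 2.82, 52.9 and 30 CPM. The 8 genes summed to 2044 ± 205 CPM in OEC4, 6051 in OEC3 and 289.5 in OEC1. The median log2 ratio of the 8 genes to OEC3, with 10 CPM added to each level, was -1.60, against -0.10 over the 6236 genes.

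Of the 6 OEC5 genes, 4 were lower in OEC4 than in OEC3 in 6 of 6 libraries and 1, the chloride channel regulator Clca3a1, was higher, at 183 ± 39.1 CPM against 136 in OEC3, 131 in OEC2 and 539.8 in OEC5. Hes5, a target of Notch signaling, had 573 ± 93.0 CPM in OEC4 and 1479 in OEC5, and the Notch feedback inhibitor Nrarp 176 ± 29.0 and 428 CPM. The receptor Notch2 had 279 ± 53.9 CPM against 565, and the angiotensin precursor Agt 263 ± 51.5 against 629 CPM. The list summed to 1707 ± 209 CPM in OEC4, 4090.5 in OEC5 and 2354 to 2849 in the other 3 clusters. OEC2 is the cluster with immediate early genes, and these were low in OEC4. Fos had 36.9 CPM in OEC4 and 1976 in OEC2, Jun 99.2 and 2065, Junb 39.1 and 1359, and Ier2 33.0 and 933 CPM.

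**Figure D3:**
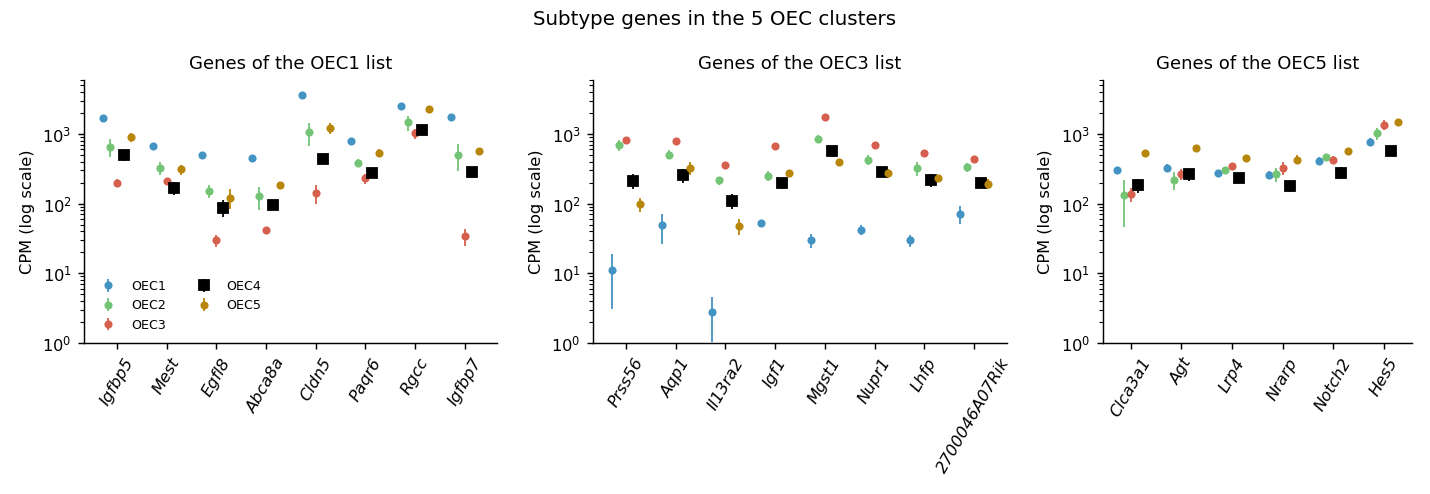
Mean CPM (log axis, SD over 6 libraries as bars) of the genes that the study used for OEC1, OEC3 and OEC5 in each of the 5 OEC clusters, with OEC4 as black squares. OEC4 lies between OEC3 and OEC1 for Igfbp7, with 282 CPM against 33.9 and 1730.2, and for Prss56, with 213 CPM against 829 and 11.1, and has the lowest Hes5 at 573 CPM.

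Both lists were also counted in single cells. To compare cells of unequal depth, each cell was thinned to 500 UMIs. A UMI of the OEC1 list was then found in 65.8 ± 2.29% of OEC4 cells (SD, n = 6 libraries) and a UMI of the OEC3 list in 52.1 ± 5.14%. In MicroG1 cells, which have a median of 1847 UMIs before thinning and should lack these genes, the shares were 8.06% and 8.34%. Both lists were found in 28.7 ± 4.27% of OEC4 cells, the OEC1 list alone in 37.1%, the OEC3 list alone in 23.4% and neither in 10.8%. OEC1 genes outnumbered OEC3 genes in 46.8 ± 1.72% of OEC4 cells and OEC3 genes outnumbered OEC1 genes in 32.6 ± 2.07%. Finding both lists in 1 cell was not particular to OEC4, since at the same depth both were found in 50.1 ± 3.03% of OEC3, 47.6 ± 2.86% of OEC5, 34.1 ± 4.78% of OEC2 and 11.1 ± 2.33% of OEC1 cells. By which list had more UMIs, OEC1 and OEC3 cells fell mostly to 1 side, with more OEC1 genes in 99.2% of OEC1 cells and more OEC3 genes in 76.2% of OEC3 cells. OEC5 cells had more OEC1 genes in 74.4%, and OEC2 was divided like OEC4, with more OEC3 genes in 43.8% and more OEC1 genes in 43.7% of its cells. As sums over cells of low depth, the 281 OEC3 cells under 1000 UMIs had 6956 CPM of the OEC3 list and 1527 CPM of the OEC1 list, compared with 2147 and 3048 CPM in the 2217 OEC4 cells under 1000 UMIs. As deposited, without thinning, 79.6% of OEC4 cells had the OEC1 list, 66.7% the OEC3 list and 49.7% both, against 24.1%, 26.2% and 7.34% of MicroG1 cells. In MicroG3, with a median depth of 748 UMIs, the OEC1 list summed to 333 CPM and the OEC3 list to 206 CPM.

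Across the 1510 genes with at least 100 CPM in either cluster, 419 (27.7%) were higher in OEC4 than in OEC3 in 6 of 6 libraries and 439 (29.1%) were lower. Since mitochondrial transcripts took a larger share of OEC4, the same count was made with CPM outside the mitochondrial genome. It gave 630 higher and 353 lower genes among 1726, and moved the median log2 ratio of all genes from -0.00 to 0.12. Against OEC1, 377 of 1669 genes (22.6%) were higher and 653 (39.1%) lower, and against OEC5, 366 of 1571 (23.3%) were higher and 518 (33.0%) lower.

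The 12 highest ratios to OEC3 included genes high in OEC1, namely Igfbp7 with a log2 ratio of 2.74 ± 0.12 (SD, n = 6 libraries), Cldn5 with 1.59 ± 0.25, Igfbp5 with 1.26 ± 0.09 and the acyl-CoA synthetase Acsbg1 with 1.64 ± 0.26, which had 781 CPM in OEC1. They also included genes of olfactory neurons, the G-protein subunit Gng13 with 1.70 ± 0.59, the calcium-binding S100a5 with 1.55 ± 0.58 and the calmodulin-binding Pcp4 with 1.29 ± 0.23. Genes of myelin were Mobp with 1.28 ± 0.19 and Mbp with 1.24 ± 0.07. MicroG1 had 151 CPM of Mobp and 767 of Mbp, above the 111 and 643 CPM of OEC3. The transcription factor Mef2c, which had 923 CPM in MicroG1, had a ratio of 1.33 ± 0.26. Thrsp, a regulator of lipogenesis, had 1.45 ± 0.35, and Chchd10, a mitochondrial protein encoded in the nucleus, 1.26 ± 0.15. Chchd10 had 155 CPM in MicroG1 and 159 in OEC3. How much of the Mobp, Mbp and Chchd10 RNA in OEC4 came from other cells was not tested. The groupings of these 12 genes were made after their values were seen.

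The lowest ratios were led by the OEC3 genes Prss56 with -1.95 ± 0.36, Igf1 with -1.75 ± 0.25, Il13ra2 with -1.65 ± 0.29 and Mgst1 with -1.61 ± 0.14. The others among the 12 were Gdpd4 with -1.81, the secreted matrix protein Ccdc80 with -1.74, Raph1, an actin regulator, with -1.73, the cytochrome P450 Cyp1b1 with -1.69, Phlda1 with -1.66, the receptor Tnfrsf19 with -1.65, the gap junction protein Gjb1 with -1.62 and the glutamate receptor subunit Grin3a with -1.60. Il13ra2 had 110.5 and 75.3 CPM in the control, 108 and 133 in the occluded and 144 and 87.2 in the trained libraries of OEC4, all below the OEC3 mean of 359 ± 40.7 CPM. All 12 genes had a still lower mean in OEC1 than in OEC4, from 1.57 CPM for Cyp1b1 to 52.9 CPM for Igf1. Phlda1 was closest, with 41.9 CPM in OEC1 and 53.8 in OEC4.

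Pathway lists differed in direction, and their counts stand beside 13.5% higher and 21.6% lower of all 6236 genes, with a median of -0.10. For lists of abundant genes the nearer shares are 27.7% and 29.1%, those of the 1510 genes with at least 100 CPM. All 13 protein-coding genes of the mitochondrial genome were higher in OEC4 than in OEC3 in 6 of 6 libraries, with a median log2 ratio of 0.82. The cytochrome oxidase subunit mt-Co1 had 24784 ± 3924 CPM in OEC4 and 13022 in OEC3. Ribosomal protein genes followed with 77 of 81 higher, 0 lower and a median of 0.51. Of 84 nuclear genes of the respiratory chain, 59 were higher and 0 lower, with a median of 0.37. Within OEC4, cells low in Malat1 had 98514 CPM of ribosomal protein genes and 205265 of mitochondrial genes, and the others 69574 and 124127. Within OEC3, cells low in Malat1 had 77025 and 147923 CPM, and the others 60077 and 94232. The part of this division in the differences between the clusters was not tested.

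Notch genes were lower throughout, with 7 of the 7 members at 20 CPM or more below OEC3 in all 6 libraries and a median of -0.68. The targets Hes5 and Hes1 had log2 ratios of -1.22 ± 0.14 and -1.16 ± 0.37, and Hes1 had 88.2 ± 23.1 CPM in OEC4 against 204 in OEC3. Of 14 identity genes at this level, 11 were lower than in OEC3, 1 (S100b) was higher, and the median was -0.59. Of 23 secreted and matrix proteins 12 were lower and 5 higher, with a median of -0.34.

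Redox genes were split, with 10 of 22 higher, 6 lower and a median of 0.13. Mgst1 was the lowest, and Slc7a11, which imports cystine for glutathione synthesis, had a log2 ratio of -1.33 ± 0.29, with 153 ± 38.3 CPM in OEC4 and 392 in OEC3. The metal-binding Mt3 was the highest with 1.22 ± 0.11, from 398 CPM in OEC3 to 936 ± 135 in OEC4, followed by Mgst3 with 0.85 ± 0.18. MicroG1 had 389.8 CPM of Mt3 and 69.6 of Mgst3, near the 398 and 67.0 CPM of OEC3. How much of these 2 RNAs in OEC4 came from other cells was not tested. Of 18 channel and gap junction genes 6 were higher and 9 lower, with a median of -0.35. Of 18 genes of engulfment and the lysosome, a known role of OECs, 0 were higher and 5 lower, with a median of -0.14, near the values over all genes.

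Markers of other cell types took a larger share of OEC4 UMIs, but not more UMIs per cell. Over 86 such markers OEC4 had 7363 ± 1182 CPM, against 3538 to 4948 CPM in the other OEC clusters. Per cell this came to 7.15 ± 1.11 UMIs in OEC4 and 8.0 to 11.4 in the others. All 10 interneuron and neuron markers were higher in OEC4 than in OEC3 as CPM, with a median log2 ratio of 0.93. Snap25, a synaptic vesicle fusion protein, had 288 ± 69.5 CPM against 124, and Gad1, which makes GABA, 225 ± 45.0 against 105. Of 7 olfactory sensory neuron markers, 4 reached 20 CPM and 3 were higher. In droplet data RNA released by other cells adds UMIs to every cell, so the levels per cell were set beside cell types that do not make these RNAs.

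S100a5 had 1.25 ± 0.592 UMIs per OEC4 cell, 0.929 ± 0.435 per OEC3 cell, 0.816 per MicroG1 cell, 1.19 per MicroG3 cell, and 1.07 per Astro2 and EC2 cell. Gng13 had 1.1 ± 0.258 in OEC4 and 0.705 to 0.988 in these other clusters, and Pcp4 0.772 ± 0.213 and 0.738 to 0.982. The mean of S100a5 and of Gng13 was higher in OEC4 than in these microglia, astrocytes and endothelium, by less than the SD over libraries against MicroG3, Astro2 and EC2, and that of Pcp4 lay within their range. The median depths were 748 UMIs in MicroG3, 1847 in MicroG1, 708.5 in Astro2 and 750.5 in EC2. How much of these RNAs in OEC4 came from other cells was not tested. S100a5 was highest in Neuron01, with 20369.7 CPM and 20.7 UMIs per cell. OEC genes stood further above these cell types. Npy had 10.8 ± 1.33 UMIs per OEC4 cell and 0.458 to 3.43 in the microglia, Astro2 and EC2, and Sox10 had 0.169 ± 0.0187 against 0.00933 to 0.0358. Prss56, at 0.207 ± 0.0498 UMIs per cell, lay above MicroG1 with 0.0172 and Astro2 with 0.0158 and closer to EC2 with 0.113.

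**Figure D4:**
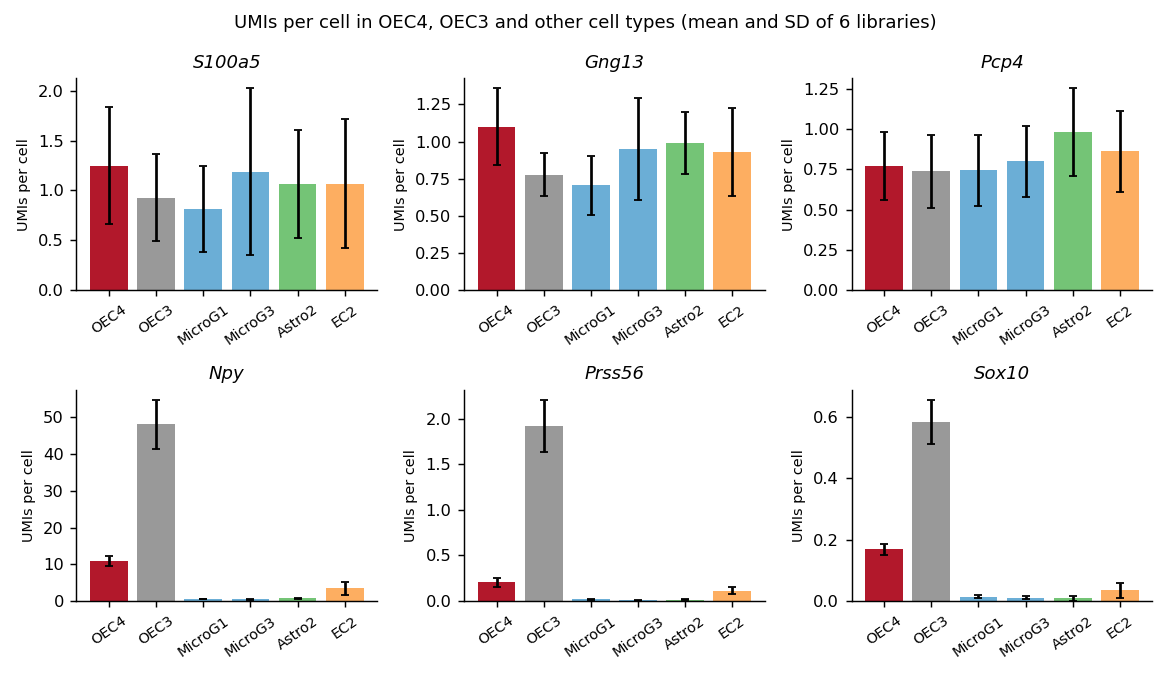
Mean UMIs per cell (bars start at 0, error bars SD over 6 libraries) of 3 neuronal and 3 OEC genes in OEC4, OEC3, the microglia MicroG1 and MicroG3, the astrocytes Astro2 and the endothelial cells EC2. The neuronal S100a5 has 1.25 UMIs per OEC4 cell and 1.19 per MicroG3 cell, while Npy has 10.8 and 0.458.

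Conditions were compared over libraries. UMIs of OEC4 cells were summed per library and 6498 genes were tested with edgeR's quasi-likelihood test and Benjamini-Hochberg adjustment, with a gene called at an adjusted p under 0.05. All values by condition are CPM after TMM scaling. In bulk-like sums of this kind fewer cells of a state and less RNA per cell cannot be told apart. With 2 libraries a group, p-values cover the spread between these libraries only. edgeR estimates this spread for each gene with information shared across the genes tested, so a gene's own spread can be larger.

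In occluded against control bulbs 2 genes were called in OEC4 (0.0308% of those tested), and 330 (5.08%) had an unadjusted p under 0.05. DESeq2 called 0 genes. The edgeR count was 1 without control replicate 1, 4 without control replicate 2, 24 without naris occluded replicate 1 and 6 without naris occluded replicate 2. S100a5, whose expression in olfactory sensory neurons follows odor activity, had 1573 and 1717 CPM in the control libraries, 769.8 and 255 in the occluded and 2024 and 1855 in the trained. Both occluded libraries lay below all others. The log2 difference was -1.68 (SE 0.20, edgeR adjusted p = 6.11e-07), with -1.03 between the male pools and -2.74 between the female pools. Without naris occluded replicate 1 it was -2.69, and without naris occluded replicate 2 it was -1.09. DESeq2 gave the same difference with a wider error (SE 0.59) and did not call it (adjusted p = 1.000, unadjusted 0.00451). Both occluded libraries were below both controls for S100a5 in 38 of 38 clusters, microglia, astrocytes and endothelium included. The 7 olfactory sensory neuron markers together had 2760.3 and 2718 CPM in control, 1927 and 997 in occluded and 3474 and 3328 in trained OEC4 cells. Their part in the result was not tested.

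The sequence before the start of S100a5 is shown because this gene had the smallest edgeR adjusted p between conditions, although DESeq2 did not call it. It comes from RefSeq (GRCm38.p6, plus strand), chr3:90608272-90608521, and covers the 250 bases upstream of the annotated start.
S100a5: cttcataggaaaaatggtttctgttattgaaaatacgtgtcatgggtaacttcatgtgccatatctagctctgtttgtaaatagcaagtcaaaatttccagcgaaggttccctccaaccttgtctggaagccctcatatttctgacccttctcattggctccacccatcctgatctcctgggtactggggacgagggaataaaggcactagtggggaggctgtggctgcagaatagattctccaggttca
The cAMP response element TGACGTCA, bound by the activity-dependent factor CREB, was not among these letters on either strand. It occurred in 1.55% of 32851 promoter windows of this length.

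Rnaset2a, a lysosomal ribonuclease with a close paralog that could share its reads, was the other called gene and was higher in the occluded libraries. It had 48.6 and 48.9 CPM in control, 96.0 and 138 in occluded and 64.5 and 58.5 in trained libraries, without overlap between control and occluded. The log2 difference was 1.26 (SE 0.26, edgeR adjusted p = 0.0370). The call ended without control replicate 1 (log2 difference 1.25), control replicate 2 (1.26) or naris occluded replicate 2 (0.98), and DESeq2 did not make it (adjusted p = 1.000). It also ended in cells thinned to 500 UMIs (1.48, edgeR adjusted p = 0.280) and in cells with at least 1000 UMIs (0.97, 0.993). The same held for cells under 20% mitochondrial UMIs (1.09, 0.526) and under 2% Malat1 UMIs (1.11, 0.556). Its level of 72.8 CPM in OEC4 compared with 373 CPM in MicroG1. Of 25 clusters with at least 20 CPM, 12 had both occluded libraries above both controls.

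The next genes by p did not pass the adjustment. Among them, Arhgap35, a GTPase-activating protein, had a log2 difference of -1.62 (edgeR adjusted p = 0.492) and Snap91, a clathrin adaptor of synapses, -1.23 (0.698). Sh3bgr with 0.85, the ribosomal RNA-derived Gm42418 with -0.63, caveolin Cav1 with 0.83, the G-protein subunit Gng4 with -0.96 and Chchd10 with -0.57 had edgeR adjusted p-values of 0.722 to 0.800. Gng4 had -1.73 without naris occluded replicate 1 (9.75e-04) and -0.47 without naris occluded replicate 2 (0.954), and Chchd10 -0.72 (0.0459) and -0.44 (0.825).

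In trained against control bulbs 8 genes were called in OEC4 (0.123%), 4 higher (0.0616%) and 4 lower (0.0616%), and 459 (7.06%) had an unadjusted p under 0.05. DESeq2 called 2 genes. The edgeR count was 4 without control replicate 1, 26 and 25 without naris occluded replicate 1 or 2, 3 without olfactory trained replicate 1 and 16 without olfactory trained replicate 2. The smallest p belonged to Malat1, with 40759 and 45955 CPM in control, 30753 and 50147 in occluded and 24175 and 20466 in trained libraries. Both trained libraries were below the other 4. The log2 difference was -0.96 (SE 0.12, edgeR adjusted p = 1.18e-06), while DESeq2 gave an SE of 0.31, an unadjusted p of 0.00187 and an adjusted p of 1.000. The share of OEC4 cells with under 2% Malat1 UMIs was 72.5% and 74.6% in control, 79.3% and 61.3% in occluded and 83.7% and 88.6% in trained libraries. Within such cells, which are chosen by Malat1 itself, its log2 difference was -0.45 (edgeR adjusted p = 0.0654). The mean share of such cells in trained libraries was 12.6 percentage points above the control mean, and an exact two-sided permutation test gave p = 0.333, the smallest possible with 2 against 2 libraries. Malat1 was lower in both trained libraries than in both controls in 24 of 38 clusters, and in OEC3 its log2 difference was -0.32 (edgeR adjusted p = 0.00488).

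The 4 genes called higher in trained bulbs were Hspa8, Tsc22d3, Tmsb10 and Mt1. Hspa8, the constitutive Hsp70 chaperone, had 557 and 637 CPM in control, 543 and 555 in occluded and 1200.5 and 870.0 in trained libraries. Its log2 difference was 0.80 (SE 0.15, edgeR adjusted p = 0.00992, DESeq2 0.0437). The call ended without control replicate 1 (0.448) or olfactory trained replicate 1 (0.579). Tsc22d3, a leucine zipper protein induced by glucocorticoids, had 91.6 and 87.6 CPM in control, 108 and 103 in occluded and 222 and 145 in trained libraries. Its log2 difference was 1.06 (SE 0.22, edgeR adjusted p = 0.0161, DESeq2 1.000), and the call ended without control replicate 1 (0.207), control replicate 2 (0.113) or olfactory trained replicate 1 (0.661). Tmsb10, which binds actin monomers, had 2352 and 2049 CPM in control, 2726 and 2308 in occluded and 3456 and 3050.2 in trained libraries. Its log2 difference was 0.56 (SE 0.12, edgeR adjusted p = 0.0303, DESeq2 0.108), and the call ended without control replicate 1 (0.246), control replicate 2 (0.715) or olfactory trained replicate 1 (0.385). In each of these 3 genes the trained libraries lay above the other 4, and trained replicate 1 was the highest. Both trained libraries were above both controls in 29 of 38 clusters for Hspa8 and in 21 of 37 for Tsc22d3, and below them in 0. For Tmsb10 they were above in 11 of 38 clusters and below in 4.

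Mt1, a metallothionein that binds zinc and copper, had 1745 and 1625 CPM in control, 1928 and 1772 in occluded and 2439 and 2541 in trained libraries. The log2 difference was 0.56 (SE 0.12, edgeR adjusted p = 0.0303, DESeq2 0.0437), and the call ended without control replicate 1 (0.458), control replicate 2 (0.604), olfactory trained replicate 1 (0.118) or olfactory trained replicate 2 (0.189). The neighboring Mt2 had 316 and 312 CPM in control, 429 and 337 in occluded and 455 and 562 in trained libraries, a log2 difference of 0.69 that did not pass (edgeR adjusted p = 0.0911). Both genes were higher in both trained libraries than in both controls in many clusters, Mt1 in 24 and Mt2 in 23 of 38. Astrocyte clusters had higher levels than OEC4, as in Astro2 with 7195 CPM of Mt1 and 2461 CPM of Mt2.

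The upstream sequences of this pair are shown because both genes had higher values in the trained libraries and metallothionein promoters are known to bind the metal-sensing factor MTF1. They come from RefSeq (GRCm38.p6, plus strand), 250 bases before the start at chr8:94178839-94179088 for Mt1 and chr8:94172368-94172617 for Mt2, with capitals at each match to the metal response core, TGCACNC or TGCGCNC, on either strand.
Mt1: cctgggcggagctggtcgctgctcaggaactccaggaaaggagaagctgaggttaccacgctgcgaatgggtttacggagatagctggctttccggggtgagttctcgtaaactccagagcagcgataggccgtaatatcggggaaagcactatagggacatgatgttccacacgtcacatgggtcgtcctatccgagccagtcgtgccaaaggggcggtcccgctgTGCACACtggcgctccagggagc
Mt2: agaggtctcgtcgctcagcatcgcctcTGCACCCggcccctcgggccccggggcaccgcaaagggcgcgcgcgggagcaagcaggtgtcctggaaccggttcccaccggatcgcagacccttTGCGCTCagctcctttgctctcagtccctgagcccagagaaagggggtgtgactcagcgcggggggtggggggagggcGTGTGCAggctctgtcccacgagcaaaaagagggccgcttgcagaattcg
Mt1 had 1 match and Mt2 had 3, and 21.4% of 32851 windows of this length held at least 1.

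The other genes called lower in trained bulbs were of unlike kinds. Col27a1, a fibrillar collagen chain, had 91.6 and 81.5 CPM in control, 69.4 and 60.7 in occluded and 29.8 and 33.1 in trained libraries. Its log2 difference was -1.47 (SE 0.29, edgeR adjusted p = 0.0127, DESeq2 1.000), and the call ended without control replicate 1 (0.243) or olfactory trained replicate 1 (0.215). Of 15 clusters with at least 20 CPM, 3 had both trained libraries below both controls, OEC4 included, and its log2 difference in OEC3 was -0.05. Rsrp1, an arginine- and serine-rich nuclear protein, had 325 and 301 CPM in control, 235 and 308 in occluded and 189 and 155 in trained libraries. Its log2 difference was -0.85 (SE 0.19, edgeR adjusted p = 0.0346, DESeq2 0.857). The call ended without control replicate 1 (0.458), control replicate 2 (0.119), olfactory trained replicate 1 (0.0807) or olfactory trained replicate 2 (0.354), and in cells under 2% Malat1 the difference was -0.14. Hbb-bs, an adult beta-globin with a close paralog, had 159 and 63.1 CPM in control, 169 and 126 in occluded and 31.4 and 45.8 in trained libraries. Its log2 difference was -1.58 (SE 0.32, edgeR adjusted p = 0.0143, DESeq2 1.000), and it was -0.75 without control replicate 1 (0.852) and -1.29 without olfactory trained replicate 1 (0.200). Globin comes from blood. In MicroG3 it had 10067 CPM in control replicate 1 and 13303 CPM in occluded replicate 2, against 51.2 to 111 CPM in the other 4 libraries. The 5 red blood cell markers in OEC4 summed to 226 and 108 CPM in control, 250.5 and 205 in occluded and 45.3 and 66.0 in trained libraries. Their part in the result was not tested.

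Of the 8 calls for training, 7 ended in cells with at least 1000 UMIs, although the log2 differences kept their sign. Hspa8 had 0.75 and Tsc22d3 1.18 (edgeR adjusted p = 0.151 for both), Mt1 0.50 (0.465), Tmsb10 0.53 (0.462), Col27a1 -1.29 (0.269), Hbb-bs -1.66 and Rsrp1 -0.83 (0.262 for both). Cells thinned to 500 UMIs lost the calls for Tsc22d3 (0.548), Col27a1 (0.440), Rsrp1 (0.0535) and Hbb-bs (0.0565). There the log2 differences of Col27a1 and Hbb-bs were both -1.49, near their -1.47 and -1.58 without thinning. That of Rsrp1 was larger in size than its -0.85, and that of Tsc22d3 was 0.80 against 1.06. OEC4 cells were also shallower in the trained libraries, with median depths of 793 and 770.5 UMIs against 844.5 and 836 in control, a difference of -58.5 (exact permutation p = 0.333, the smallest possible). The part of depth in these results was not tested beyond these settings.

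**Figure D5:**
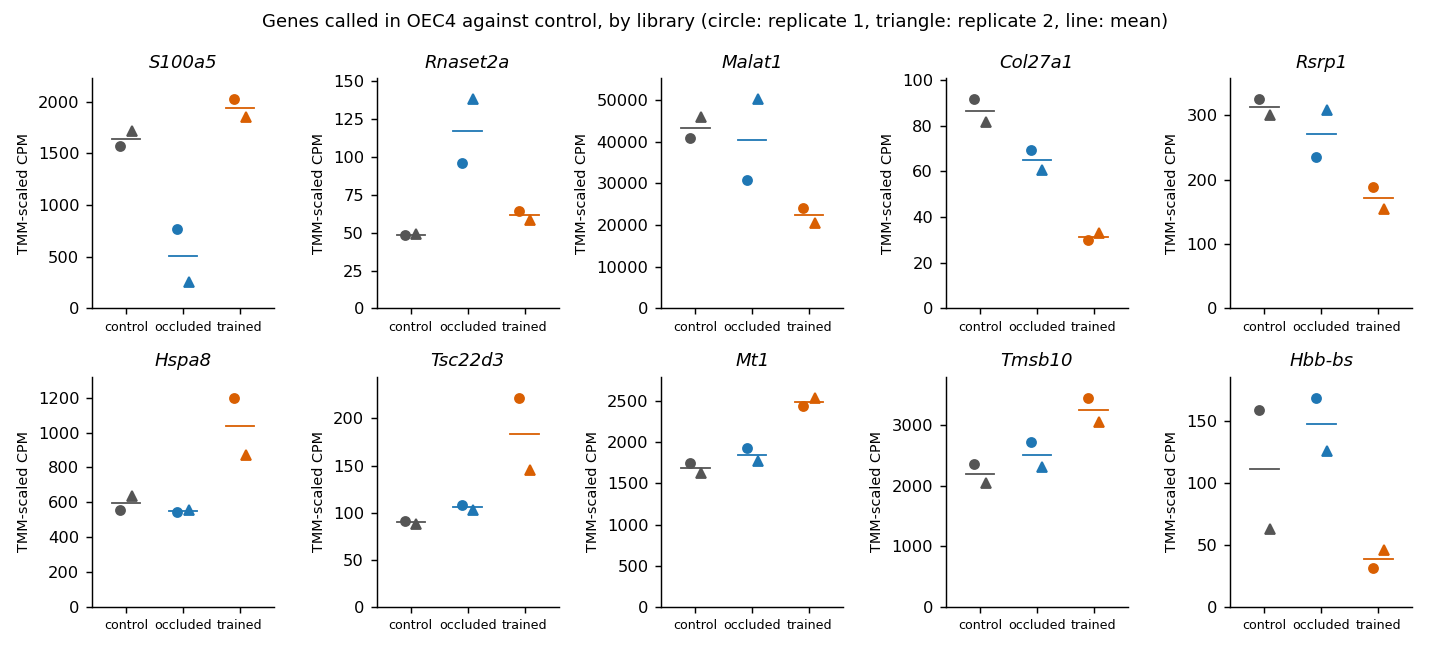
CPM after TMM scaling (y axes from 0) of the 10 genes called in OEC4 in occluded or trained against control bulbs, with 1 point per library (circles replicate 1, triangles replicate 2) and a line at the group mean. S100a5 is lowest in the occluded libraries at 769.8 and 255 CPM, and Malat1 is lowest in the trained libraries at 24175 and 20466 CPM.

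Just short of the threshold were Gpt2, an alanine transaminase, with 136 and 120.1 CPM in control and 236 and 219 in trained libraries (log2 0.83, edgeR adjusted p = 0.0516), and Psmb8, a subunit of the immunoproteasome, with 43.0 and 42.8 against 4.96 and 20.4 CPM (log2 -1.93, adjusted p = 0.0852). Leaving out each library in turn gave Psmb8 log2 differences from -3.05 without olfactory trained replicate 2 (0.00198) to -1.06 without olfactory trained replicate 1 (0.798), and Gpt2 from 0.74 without control replicate 2 (0.60) to 0.93 without control replicate 1 (0.357). Both passed without naris occluded replicate 1 (Psmb8 0.0101, Gpt2 0.00750) or replicate 2 (0.0108 and 0.00971).

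Between the opposed manipulations, trained against occluded, 18 genes were called (0.277%), 11 higher (0.169%) and 7 lower (0.108%) in the trained libraries, and 666 (10.2%) had an unadjusted p under 0.05. This comparison shares its libraries with the other 2. The count was 32 without control replicate 2, 132 without naris occluded replicate 1 and 51 without olfactory trained replicate 2. S100a5 again had the smallest edgeR adjusted p, with a difference of 1.92 (SE 0.20, edgeR adjusted p = 1.22e-08, DESeq2 0.940). Without naris occluded replicate 1 its difference was 2.94. Hbb-bs had -1.98 and Malat1 -0.86, and the latter was -0.46 without naris occluded replicate 2. The secreted protein Nell2 had 202 and 214 CPM in occluded and 107 and 94.1 in trained libraries, a log2 difference of -1.03 (edgeR adjusted p = 0.00553, DESeq2 0.830). The mitochondrial mt-Co1 had 22524 and 20016 CPM in occluded and 32485 and 29167 in trained libraries, with controls between them at 27074 and 25086, and a difference of 0.54 (edgeR adjusted p = 0.00114, DESeq2 0.0159). For mt-Co1 both trained libraries were above both occluded libraries in 31 of 38 clusters and below them in 0. These 5 genes kept their calls in each fit that left out 1 library, but not under other settings. With only the libraries compared, Malat1 (edgeR adjusted p = 0.0715), Nell2 (0.0715) and mt-Co1 (0.227) were not called. In cells with at least 1000 UMIs Malat1 had -0.48 (0.359), Hbb-bs -1.78 (0.0984) and mt-Co1 0.49 (0.184), and in cells under 2% Malat1 UMIs Nell2 had -0.86 (0.142) and Malat1, by which those cells are chosen, -0.11 (0.834). Nell2 was also not called in cells thinned to 500 UMIs (0.179), nor mt-Co1 in cells under 20% mitochondrial UMIs (0.0893).

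Ttr, the transthyretin made by the choroid plexus, had the largest fitted difference, -2.56 (SE 0.57, edgeR adjusted p = 0.0304), but the values were uneven within groups. It had 33.7 and 287 CPM in control, 32.7 and 327 in occluded and 28.1 and 33.1 in trained libraries, so only occluded replicate 2 and control replicate 2 were high. Without naris occluded replicate 2 the difference was -0.11 (adjusted p = 0.970). The alpha-globin Hba-a1 had 24.5 and 50.3 CPM in occluded and 6.61 and 7.63 in trained libraries, a difference of -2.37 (edgeR adjusted p = 0.0313). Hif1a, the hypoxia-inducible factor, had 16.3 and 31.4 against 66.1 and 68.7 CPM (log2 1.49, edgeR adjusted p = 0.0350). C4b, a complement component, had 116 and 205 against 76.1 and 78.9 CPM (log2 -1.05, 0.0313), and Csmd1, a complement regulator, 44.9 and 64.9 against 13.2 and 20.4 CPM (log2 -1.75, 0.0313). Ccdc85b differed by 1.44, the predicted gene Gm10126 by 1.36, Hspa8 by 0.92, Ndrg4 by 0.84, Gng13 by 0.78, Pcp4 by 0.75 and mt-Co3 by 0.38, all at edgeR adjusted p-values of 3.70e-04 to 0.0454. DESeq2 called 2 of the 18, Hspa8 (0.00487) and mt-Co1.

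Most of these calls ended in a fit that left out 1 library, although not every log2 difference moved. Without olfactory trained replicate 1 the call ended for 11 genes. Among them, C4b (log2 difference -1.02), Ccdc85b (1.45), Gm10126 (1.34), Hba-a1 (-2.24) and Hif1a (1.52) stayed near their values with all libraries. The differences of Csmd1 (-1.41), Hspa8 (0.67), Ndrg4 (0.71), Pcp4 (0.51) and mt-Co3 (0.31) were smaller. Without naris occluded replicate 2 the call ended, with smaller differences, for C4b (-0.59), Ccdc85b (0.84), Csmd1 (-1.46), Gng13 (0.50), Hba-a1 (-1.76), Ndrg4 (0.63), Pcp4 (0.40) and Ttr (-0.11). The call for Hif1a also ended without naris occluded replicate 1 (1.11), and that for mt-Co3 without control replicate 1 or control replicate 2 (0.38 in both).

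Lists of this size hold few calls at the shares over all genes, which were 0.0308% for occluded against control, 0.123% for trained against control and 0.277% for trained against occluded, with 5.08%, 7.06% and 10.2% at an unadjusted p under 0.05. Of 14 tested OEC identity genes, 0 were called, which is no more than these shares give, with medians of 0.11, 0.01 and -0.13 (log2) for occluded against control, trained against control and trained against occluded, against -0.00, 0.00 and 0.01 over all 6498 genes, and with 1, 0 and 2 genes at an unadjusted p under 0.05. Sox10 differed by 0.08, -0.05 and -0.13 (edgeR adjusted p = 0.991, 0.974 and 0.874). The 8 OEC1, 8 OEC3 and 6 OEC5 genes likewise had 0 called. Mitochondrial genes had lower values in occluded bulbs, with 13 of 13 negative, a median of -0.17, 0 called and 4 at an unadjusted p under 0.05. Against occluded bulbs the trained bulbs had 13 of 13 positive and 2 called.

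Heat shock genes had 10 of 10 positive differences in trained against control, with a median of 0.46, 1 called (Hspa8) and 4 at an unadjusted p under 0.05, beside 0.123% and 7.06% over all genes. The 10 interneuron and neuron markers all had negative differences in occluded against control, with a median of -0.42, 0 called and 5 at an unadjusted p under 0.05, beside 0.0308% and 5.08% over all genes. Immediate early genes had a median of 0.35 in trained against control, with 0 of 8 called and 4 at an unadjusted p under 0.05. Of 13 tested genes of antigen presentation and the interferon response, 12 had negative differences in trained against control, with a median of -0.24, 0 called and 5 at an unadjusted p under 0.05.

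Condition effects in OEC4 were set beside those in OEC3 and the difference of the effects was tested. Of 9311 genes, 0 (0%) differed by edgeR in any of the 3 comparisons, with 376, 438 and 511 at an unadjusted p under 0.05 for occluded against control, trained against control and trained against occluded. DESeq2 also called 0, with 25, 24 and 54 at an unadjusted p under 0.05. The edgeR counts were 7, 4 and 55 without naris occluded replicate 1, 3, 4 and 0 without naris occluded replicate 2, and at most 2 without any other library. The smallest edgeR adjusted p-values were 0.932, 0.315 and 0.166. Simulated counts held 200 genes with a true log2 change of 1, and the fit found 15%, 18% and 15% of them. Most differences of that size would thus be missed, and the 0 calls do not show that the effects were equal. S100a5 fell by 1.68 on the log2 scale in OEC4 and by 1.70 in OEC3. In trained against control bulbs Hspa8 had 0.80 in OEC4 and 0.78 in OEC3, Tsc22d3 1.06 and 0.87, Mt1 0.56 and 0.53, and Hbb-bs -1.58 and -1.94. Malat1 had -0.96 and -0.32, with an edgeR adjusted p of 0.353 for the difference, and Col27a1 had -1.47 and -0.05, with 0.315. OEC3 itself had 2 (0.0206%), 24 (0.247%) and 30 (0.309%) called genes among 9711, with more UMIs per library.

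The number of OEC4 cells did not differ detectably between conditions. Against all other cells the log2 differences by edgeR over 38 clusters were -0.02 (SE 0.27) for occluded against control, 0.16 for trained against control and 0.18 for trained against occluded, with adjusted p-values of 0.958, 0.760 and 0.667, where 1 (2.63%), 0 (0%) and 6 (15.8%) of the 38 clusters were called. OEC4 made up 5.50% and 6.78% of all cells in control, 6.30% and 5.79% in occluded and 6.74% and 6.95% in trained libraries. Among OECs its share was 25.7% and 29.5% in control, 24.5% and 23.3% in occluded and 36.7% and 30.1% in trained libraries. The 3 groups of shares did not overlap, and each difference had an exact permutation p of 0.333, the smallest possible. Tested over the OEC clusters alone, trained exceeded occluded by 0.49 on the log2 scale (SE 0.13, edgeR adjusted p = 0.0885).

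Mitochondrial share was also compared between conditions. The median of OEC4 cells was 19.2% and 19.1% in control, 16.8% and 16% in occluded and 20.0% and 19.4% in trained libraries. Occluded libraries were lowest, 2.75 percentage points below control on average (exact permutation p = 0.333, the smallest possible). Lower mitochondrial transcripts with occlusion were not particular to OEC4. Both occluded libraries were below both controls for mt-Co1 in 31 of 38 clusters and for mt-Co3 in 27, and above them in 0. Median depth overlapped between occluded libraries and the rest, and its difference from control was 2.75 UMIs (exact permutation p = 1.00), whereas both trained libraries were below both controls.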

How the data were processed

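Libraries were 10x Chromium 3′ UMI libraries of dissociated olfactory bulbs. Per the submitters' processing notes the authors used Cell Ranger 2.0.0, Seurat 2.2.1 and mm10, and kept barcodes with at least 200 genes. They then clustered all libraries together and removed doublets, and no doublet caller was run here. The deposited matrix holds whole UMI counts for 18560 genes and 52549 barcodes, of which 51426 are annotated. The deposited annotation gives each cell's cluster, library and mitochondrial fraction. The mitochondrial percents printed here were instead computed from the deposited counts. In 316 OEC4 cells the summed counts differed from the UMI total in the annotation, and the summed counts were used. A normalized expression table and a second annotation of neurons were not used. Total counts per library were 11841160 to 17065083 UMIs. Intervals and errors cover the spread between libraries and counting only, and 3′ counts were not scaled by length.

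OEC4 cells were compared with OEC1, OEC2, OEC3 and OEC5 within each library, as mean log2 CPM ratios with a pseudocount of 10 CPM and no test, for genes with at least 100 CPM (20 CPM for lists) in either cluster. Lists were the identity, OEC1, OEC2, OEC3 and OEC5 genes, 86 markers of other cell types, and pathway lists. Conditions were tested on OEC4 counts summed per library with edgeR 4.0.16 in R 4.3.3 (quasi-likelihood, TMM, filterByExpr, all 6 libraries in 1 fit). Adjusted p-values are Benjamini-Hochberg over all genes tested, with a threshold of 0.05. Shares and medians were compared by exact two-sided permutation tests over libraries. Cells of 1 library are no replicates, and nothing states that the libraries of a group were processed on different days. Cell numbers were tested with edgeR over 38 clusters. The fits were tested on simulated counts with known changes, in which 200 genes had a true log2 change of 1. For OEC4 they found 35.5% of these genes in occluded against control, 37.5% in trained against control and 34% in trained against occluded.

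Named genes were, between conditions, up to 10 called genes with the largest change in the same direction in both replicate numbers, filled up to 10 by smallest p, and members of the lists. Between clusters they were the 12 most abundant, the 12 highest and the 12 lowest against OEC3 with the same direction in all 6 libraries. Other called genes are named as well, and a few genes that the rule names are not reported here. Members and lists were chosen with earlier results of these data known, and the OEC1, OEC2, OEC3 and OEC5 lists were chosen by the study on these samples. Alternatives were DESeq2 1.42.0, RLE size factors, no filter, counts without mitochondrial genes, the libraries compared alone, a replicate block, cells thinned to 500 or 1000 UMIs and leaving out each library. Chosen after seeing the data were cells with at least 1000 UMIs, under 20% mitochondrial UMIs or under 2% Malat1 UMIs, and the thinned fit of the difference between OEC4 and OEC3.

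Replicate numbers mark the sex of the pools. Deviations of libraries with the same number correlated at 0.082 (control and occluded), 0.0865 (control and trained) and 0.0522 (occluded and trained) over 6498 genes. These were under 0.1 in each case, and numbers were not taken to pair the libraries. Such low correlations over all genes do not show that sex had no effect on single genes. The main fits had no term for sex, and the fit with a replicate block was an alternative.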

Additional observations from a re-analysis of the deposited data

Results flagged for a closer look

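In 3 measures of OEC4, over 4 comparisons, the male pools (replicate 1) and the female pools (replicate 2) moved in opposite directions, and none of these differences between the pools was tested. With 1 library per sex and condition, sex cannot be told apart from the library. OEC4 as a percent of all cells was 0.796 percentage points higher in occluded than in control bulbs for male pools and changed by -0.992 for female pools. Its median UMIs per cell changed by 87.5 from control to occluded in male pools and by -82.0 in female pools. From occluded to trained the median changed by -139 UMIs in male pools and by 16.5 in female pools. The percent of OEC4 cells with under 2% Malat1 UMIs changed from control to occluded by 6.76 percentage points in male pools and by -13.2 in female pools. Naris occluded replicate 2 had the lowest of the 6 values for median UMIs, with 754, and for the percent of cells low in Malat1, with 61.3.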

How the results depend on the processing

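Counts of called genes depended on the tool and on the cells used. For occluded against control (2 genes) DESeq2 gave 0, and cells with at least 1000 UMIs, under 20% mitochondrial UMIs or under 2% Malat1 UMIs gave 1 each. For trained against control (8 genes) DESeq2 gave 2, no filter 15, cells thinned to 500 UMIs 5, cells with at least 1000 UMIs 1, under 20% mitochondrial UMIs 13 and under 2% Malat1 UMIs 5. For trained against occluded (18 genes) DESeq2 gave 2, no filter 29, only the libraries compared 2, thinned cells 11, cells with at least 1000 UMIs 4 and under 2% Malat1 UMIs 8. The replicate block gave 13 genes for trained against control and 30 for trained against occluded, the numbers not being taken as pairs, and it ended no call named in the text except mt-Co3 (edgeR adjusted p = 0.0775) and made Gpt2 (0.0381) and Psmb8 (0.0401) called in trained against control. For the difference between OEC4 and OEC3 (0 genes), no filter gave 2 for trained against control and 4 for trained against occluded, and thinned cells gave 1 and 2. Leaving out 1 library gave 1 to 24, 3 to 26 and 16 to 132 called genes for occluded against control, trained against control and trained against occluded, each highest without naris occluded replicate 1, and 0 to 7, 1 to 4 and 0 to 55 for the difference between OEC4 and OEC3. It gave log2 differences in the number of OEC4 cells of -0.17 to 0.14, 0.01 to 0.31 and 0.12 to 0.24, so the first changed sign, as without naris occluded replicate 2 (0.04). Shares of OEC4 among OECs differed by -5.67 to -1.78, 2.50 to 9.13 and 6.22 to 12.9 percentage points, median UMIs by -86.2 to 91.8, -69.8 to -47.2 and -150.2 to 27.8, and mitochondrial percent by -3.18 to -2.32, 0.246 to 0.893 and 2.89 to 3.75. Genes higher and lower than in OEC3 in every library numbered 428 to 478 and 452 to 495 without 1 library, 630 and 353 outside the mitochondrial genome and 841 and 1345 at 20 CPM. The log2 ratio of Apoe to OEC3 was -0.01 in cells with at least 1000 UMIs and 0.07 otherwise. Without thinning, 79.6% of OEC4 cells had the OEC1 list, 66.7% the OEC3 list, 49.7% both, 35.8% more OEC3 and 51.7% more OEC1 UMIs, and thinned to 1000 UMIs the shares were 83.6%, 70.8%, 57.0%, 35% and 52.5%. The causes were not tested. Depth limits OEC4, whose smallest library held 424266 UMIs, so 20 CPM in it stands for few UMIs.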

Other observations

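Gene groups not described above differed little or in mixed directions between OEC4 and OEC3, counted over genes with at least 20 CPM in either cluster and set beside 13.5% higher and 21.6% lower of all 6236 genes. Of 16 genes of glucose and lactate metabolism 7 were higher in OEC4 in 6 of 6 libraries and 4 lower, with a median log2 ratio of 0.26. Of 20 lipid-handling genes 8 were higher and 8 lower, with a median of -0.08, and of 10 genes of axon contact and adhesion 1 was higher and 3 lower, with a median of -0.09. Antigen presentation and interferon genes had 4 of 12 higher and 1 lower, with a median of 0.30. Among 10 heat shock genes 2 were higher and 0 lower, with a median of 0.06. The 2 were Cryab, a small heat shock protein with 572 ± 47.3 CPM in OEC4, 361 in OEC3 and 1182 in OEC1, and the mitochondrial chaperonin Hspe1 with 310.4 ± 56.2 and 252 CPM. Of 8 immediate early genes 0 were higher and 2 lower, with a median of 0.02, and of 5 nuclear RNAs 2 were higher and 2 lower, with a median of -0.24.

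Marker lists of other cell types, summed in OEC4, came to 809 ± 43.5 CPM for astrocytes, 402 ± 52.9 for myelinating oligodendrocytes, 280.0 ± 52.3 for microglia, 132 ± 27.2 for endothelium, 1286 ± 202 for mural cells, 54.3 ± 19.8 for macrophages and monocytes and 17.1 ± 5.32 for mesenchymal cells.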
